A study of Mus musculus with 9 samples.

Results

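The transcripts of 10 genes that the transcription factor p53 is known to activate were followed in medullary thymic epithelial cells (mTEC). The members were chosen by symbol, and each was read from 1 RefSeq entry, the one with the most reads where a symbol had several. They were Mdm2, Ccng1, Cdkn1a, Btg2, Bax, Bbc3, Perp, Trp53inp1, Sesn2 and Gdf15, 10 of the 23000 genes with a symbol in the files, and all 10 had reads in all 9 libraries. The libraries came from 4-week-old mice on the B6 background, whose mTEC were sorted as cells without CD45 and Ly51 and with high (mTEChi) or low (mTEClo) surface MHC class II. One pair set mTEChi of Aire-KO mice (allele B6.129S2-Aire tm1.1Doi, Aire-/-) against mTEChi of wild-type (WT) mice, each sorted from a pool of 4 thymi. A second pair, Exp2, held mTEChi and mTEClo of 1 pool of 4 WT thymi. The other 5 libraries were WT mTEChi from pooled thymi kept for 0, 1.5, 3, 6 or 12 h in 1 µM actinomycin D, which blocks RNA synthesis. No group had a replicate, so a ratio between libraries describes those libraries, and its 95% interval covers counting error only.

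The p53 protein is a tetramer that binds a tandem of decamers in DNA and switches on genes that stop the cell cycle, trigger cell death or temper stress. One of its targets, Mdm2, encodes the ubiquitin ligase that marks p53 for destruction, so that p53 limits its own level. Mature mTEC express very many genes of other tissues under the control of Aire and turn over quickly, and p53 is known to be active in the thymic epithelium. Several of the 10 genes also answer to other factors: Perp to p63, Btg2 to growth signals, and Sesn2 and Gdf15 to the integrated stress response.

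The decamer of the p53 consensus was searched in the RefSeq promoter windows of assembly GRCm38.p6, which span 250 bases before to 50 bases after each annotated start. It reads the same on both strands and was searched by itself, with no other motif. Of the 10 members, 8 had a window, and 4 of these held a match (Cdkn1a, Ccng1, Mdm2 and Bax), against 9.55% of the 27025 genes with a window. The sequences are shown because p53 binds tandems of such decamers, though the members were not chosen by them. Each has 30 bases, 5′ to 3′ on the strand of the gene, with the matching 10 bases in capitals.
Cdkn1a, chr17:29090896-29090925, plus strand: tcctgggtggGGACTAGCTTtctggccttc
Cdkn1a, chr17:29090918-29090947, plus strand: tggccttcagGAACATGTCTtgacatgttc
Ccng1, chr11:40755452-40755481, minus strand: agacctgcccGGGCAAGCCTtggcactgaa
Mdm2, chr10:117710925-117710954, minus strand: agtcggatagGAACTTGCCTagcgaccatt
Bax, chr7:45467080-45467109, minus strand: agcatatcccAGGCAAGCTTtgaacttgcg
Both Cdkn1a matches lie in 1 window, with 12 bases between them, and begin 73 and 51 bases before the start. A window with 2 decamers at most 13 bases apart was found for 24 of 32851 windows in all, and Cdkn1a was the one member with such a window. The 10 bases that follow the second Cdkn1a match differ from the decamer at 1 position. In Ccng1, Mdm2 and Bax the match begins 185, 186 and 201 bases before the start. Of the 16 genes with a window in a list of 22 further p53 targets, 7 held a decamer. These matches describe the letters of the windows and say nothing of binding in mTEC.

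Reads summed over RefSeq entries ranged from 74161592 to 195444567 in the pairs, and came to 91610143 at 0 h and to between 1746825 (12 h) and 21124165 (1.5 h) in the treated libraries. In the table of the Aire pair no column names a sample, and the study's own code, which reads the ratio as WT over Aire-KO, was used to assign them. Aire itself stood at 87380 normalised counts in the library labelled Aire-KO, compared with 29191 in WT mTEChi. Its entry adds the reads of all annotated exons, also those outside a deletion, so this level cannot check the label. Aire is known to switch on a large number of genes, and 29.0% of 19760 genes were at least 2-fold lower in the library labelled Aire-KO than in WT mTEChi, with 7.22% at least 2-fold higher. None of the 5 pan-epithelial markers or 9 mTEChi maturation markers was at 0 in any library, and all 9 maturation markers were at least 2-fold higher in mTEChi than in mTEClo. The actinomycin D files differ in what they count. Over 9707 entries, the ratio of the 0 h library to mTEChi Exp2 went with the share of the transcript that is coding (Spearman rho 0.718 across genes, which are not independent), while that of WT mTEChi to mTEChi Exp2 did not (rho 0.0067). Entries with a coding share up to 38.1% had a median log2 ratio of −0.87, and those from 72.7% up a median of 0.77. Single levels at 0 h are therefore not set beside levels of the pairs below, and where a fit takes the 0 h library as a replicate, its values without that library are given too.

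All 10 genes were well expressed in mTEC. In mTEChi of both WT libraries of the pairs the 4 highest per kilobase of transcript were, in this order, Perp, Btg2, Cdkn1a and Bax, and Bbc3 was the lowest. In WT mTEChi of the Aire pair Perp had 32545 normalised counts per kilobase and Bbc3 1498, and in mTEChi Exp2 Perp had 15010 and Bbc3 1600. Between them the order was not stable, as Gdf15 took the ninth place in WT mTEChi of the Aire pair and the fifth in mTEChi Exp2. In mTEClo the order again began with Perp, Btg2 and Cdkn1a and ended with Bbc3. The library labelled Aire-KO stood apart, with Bax first at 14877 normalised counts per kilobase, ahead of Cdkn1a (9205), Ccng1 (8931) and Perp (8918).

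**Figure D1:**
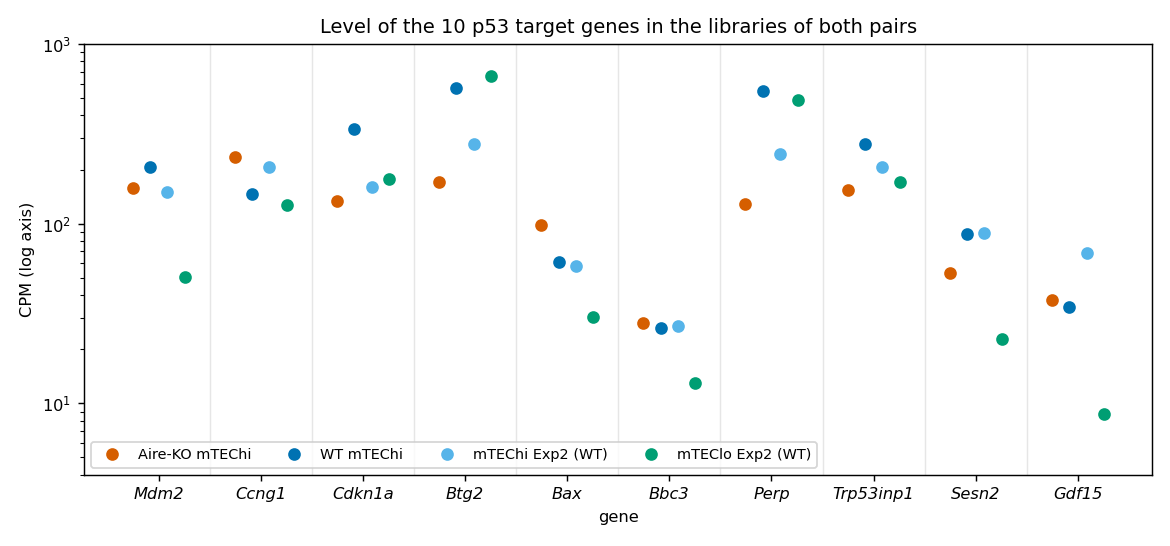
Each point is 1 library, and the y axis gives reads per 1e6 reads of the library (CPM) on a log scale for the 10 p53 target genes, ordered by role, in Aire-KO mTEChi, WT mTEChi, mTEChi Exp2 and mTEClo Exp2. For Cdkn1a, Btg2 and Perp the WT libraries of mTEChi lie apart by more than 2-fold, while for Bax, Bbc3 and Sesn2 they nearly coincide.

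The Aire pair addresses which of these transcripts depend on Aire. In the library labelled Aire-KO, Perp, Btg2 and Cdkn1a were at least 2-fold lower than in the WT library of the pair, and no member was at least 2-fold higher. These 3 of 10 stand against 29.0% of 19760 genes at least 2-fold lower and 7.22% at least 2-fold higher. At 3-fold Perp alone was lower, against 22.8% of genes. Bax and Ccng1 were the members with the highest ratios, both near 1.9. The median ratio of the 10 was 0.807, against 0.960 over all genes.

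Among the cell cycle members, Cdkn1a (NM_007669, mm9 chr17:29227924-29237667, plus strand) encodes p21, the inhibitor of cyclin-dependent kinases that carries much of the p53 arrest. It had 17581 normalised counts in the library labelled Aire-KO, compared with 37731 in WT mTEChi, 2.15-fold lower (95% interval 2.11 to 2.18). Btg2 (NM_007570, chr1:135971747-135975697, minus strand), an antiproliferative protein that recruits the CCR4-NOT deadenylase, had 22411, against 64288 in WT, 2.87-fold lower (2.83 to 2.91). Ccng1 (NM_009831, chr11:40562054-40568813, minus strand) went the other way. This cyclin G1 gene, whose product takes part in the p53 and Mdm2 feedback, had 31143 normalised counts, against 16469 in WT, a ratio of 1.89 (1.86 to 1.93). For Mdm2 (NM_010786, chr10:117125944-117147814, minus strand) the libraries were close, with 20976 in the library labelled Aire-KO and 23201 in WT, a ratio of 0.904 (0.887 to 0.921). Cdkn1a, Btg2, Ccng1 and Mdm2 thus lay on both sides of 1.

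Of the cell death members, Perp (NM_022032, chr10:18564877-18576879, plus strand) had the lowest ratio of all 10. Perp is a membrane protein of desmosomes that was found as a p53 effector of cell death. It had 16945 normalised counts in the library labelled Aire-KO, compared with 61836 in WT mTEChi, 3.65-fold lower (3.59 to 3.71). Bax (NM_007527, chr7:52717065-52722268, minus strand), which opens the outer mitochondrial membrane, had 12928, against 6877 in WT, a ratio of 1.88 (1.82 to 1.94). Bbc3 (NM_133234, chr7:16894965-16903554, plus strand), which encodes the BH3-only protein PUMA, had 3713, against 2959 in WT, a ratio of 1.25 (1.19 to 1.32). Trp53inp1 (NM_021897, chr4:11083578-11101526, plus strand), a stress-induced nuclear protein that promotes p53 activity and autophagy, had 20453, against 31398 in WT, a ratio of 0.651 (0.640 to 0.663). Bax and Bbc3 thus lay above 1 and Perp and Trp53inp1 below it, with Perp alone past 2-fold. In CPM the ratio of Bbc3 was 1.07.

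Sesn2 (NM_144907, chr4:132047947-132066416, minus strand) and Gdf15 (NM_011819, chr8:73153292-73156355, minus strand) belong to the stress response. Sesn2 encodes a sestrin that restrains the mTORC1 kinase. It had 7003 normalised counts in the library labelled Aire-KO, compared with 9863 in WT, a ratio of 0.710 (0.689 to 0.732). Gdf15, a secreted factor of the TGF-beta superfamily, had 4994, against 3881 in WT, a ratio of 1.29 (1.23 to 1.34). No gene with exons overlapping those of a member was annotated for any of the 10.

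The mTEChi library of Exp2 gives a second WT level, and the comparison turned on it. Set per 1e6 reads of the library (CPM), Perp stood at 128 CPM in the library labelled Aire-KO, compared with 548 in WT mTEChi and 243 in mTEChi Exp2. Btg2 stood at 169 CPM, against 570 and 277 in the same WT libraries, and Cdkn1a at 133, against 335 and 161. The WT libraries thus differed from each other by 2.26-fold for Perp, 2.06-fold for Btg2 and 2.08-fold for Cdkn1a. These were the 3 members at least 2-fold higher in WT mTEChi than in mTEChi Exp2, against 5.32% of 19672 genes. Against mTEChi Exp2 the ratio was 0.528 for Perp, 0.613 for Btg2 and 0.828 for Cdkn1a, so that 0 of 10 members were at least 2-fold lower. Gdf15 lay on either side of 1, at 1.10 against WT mTEChi and 0.549 against mTEChi Exp2, both in CPM.

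In CPM the library labelled Aire-KO lay outside both WT libraries for 8 members, above them for Bax, Bbc3 and Ccng1 and below them for Perp, Btg2, Cdkn1a, Sesn2 and Trp53inp1. Of 19712 genes, 19.0% lay above both and 56.1% below both. For 3 members the gap to the nearer WT library was also larger than the gap between the WT libraries. Bax had 97.8 CPM, against 61.0 in WT mTEChi and 57.8 in mTEChi Exp2. Sesn2 had 52.95 CPM, against 87.4 and 89.2. Bbc3 had 28.1 CPM, against 26.2 and 26.9, and the counting intervals of such close ratios do not cover the spread between sorts. By the same rule 8.46% of genes were above and 40.0% below both WT libraries.

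**Figure D2:**
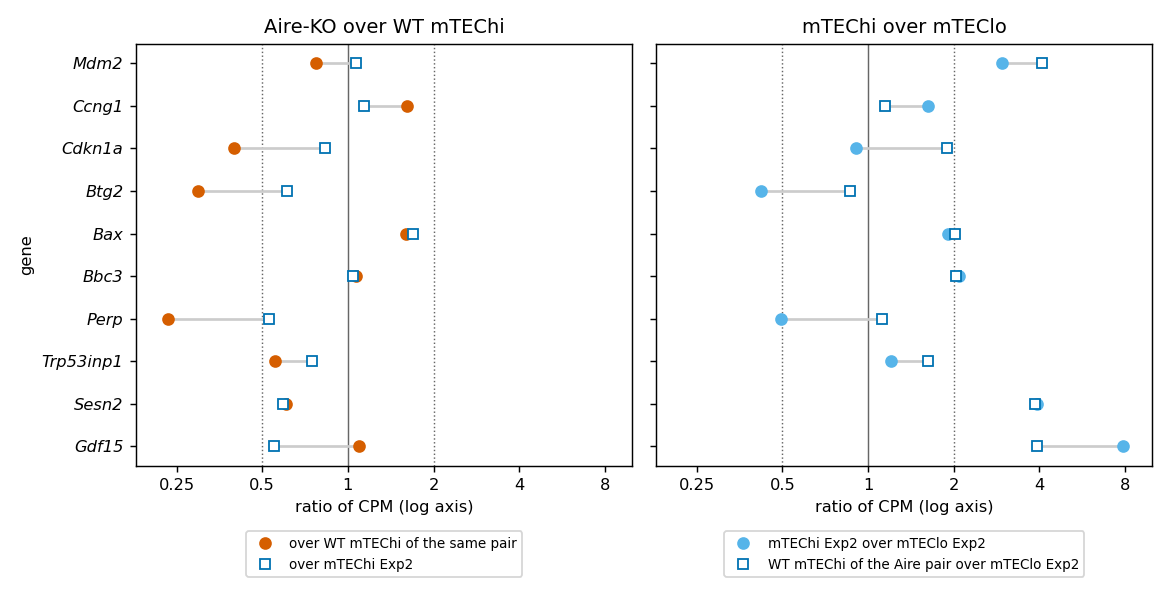
The left panel gives the CPM of the library labelled Aire-KO over that of WT mTEChi of its pair (filled) and over mTEChi Exp2 (open), and the right panel the CPM of mTEChi Exp2 (filled) or WT mTEChi of the Aire pair (open) over mTEClo Exp2, on log axes with dotted lines at 2-fold. Filled and open points part most for Cdkn1a, Btg2, Perp and Gdf15, and nearly coincide for Bax, Bbc3 and Sesn2.

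With 3 untreated WT mTEChi libraries (WT mTEChi, mTEChi Exp2 and the 0 h library) as replicates, no member passed edgeR's quasi-likelihood test against the library labelled Aire-KO (0 of 10 at an adjusted p of 0.05, 0 of 10 at an unadjusted p of 0.05, and 0 of 10 in DESeq2 after adjustment). In that fit 8.21% of 24703 entries were lower and 0.0810% higher. Perp had a log2 difference of −1.06 (edgeR adjusted p = 0.603), Btg2 of −0.77 (0.724) and Bax of 1.02 (0.254). Without the 0 h library, whose counts went with the coding share, the differences were −1.42 for Perp (adjusted p = 0.164), −1.11 for Btg2 (0.240) and 0.94 for Bax (0.130), and again no member passed, where 11.4% of 24649 entries were lower and 0.385% higher.

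Markers of other cell types of the medulla also differed between these libraries. Mature mTEC include cells that resemble keratinocytes and tuft cells. All 7 measured keratinocyte markers and all 5 tuft markers were at least 2-fold lower in the library labelled Aire-KO than in WT mTEChi. The summed keratinocyte list held 94.0 CPM in the library labelled Aire-KO, compared with 1176 in WT mTEChi, and 363 in mTEChi Exp2, against 656 in mTEClo. The summed tuft list held 139 CPM in the library labelled Aire-KO, compared with 636 in WT mTEChi, and 187 in mTEChi Exp2, against 1053 in mTEClo. No marker of either list was at 0. Perp and Cdkn1a ordered these 4 libraries as the keratinocyte list did, and Btg2 as the tuft list did. The orders of the keratinocyte and tuft lists differ only in whether WT mTEChi or mTEClo is the highest. The order of the tuft list was not particular to it. Summed immediate early, integrated stress response, desmosome and endothelial lists had it too. Immediate early genes summed to 11996 CPM in mTEClo, 6581 in WT mTEChi, 6109 in mTEChi Exp2 and 5621 in the library labelled Aire-KO. In such bulk samples fewer cells of a type and less RNA per cell cannot be told apart, and the part of these cells in the result was not tested. Of the 5 measured dendritic cell and macrophage markers 4 were also at least 2-fold lower, with a sum of 348 CPM against 634 in WT, and of 6 endothelial markers 4 were (24.7 CPM against 55.3). Fibroblast markers had 3 of 7 at least 2-fold higher and 1 lower (178 CPM against 107), cell cycle markers 2 of 8 higher (322 against 217), and thymocyte markers 2 of 7 lower (25.7 against 42.3). In mTEChi Exp2 the cell cycle sum was 493 CPM, so the library labelled Aire-KO lay between the WT libraries for it. The other sums in mTEChi Exp2 were 515 CPM (dendritic cell and macrophage), 35.4 (endothelial), 92.6 (fibroblast) and 43.9 (thymocyte). The part of these lists was not tested either.

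**Figure D3:**
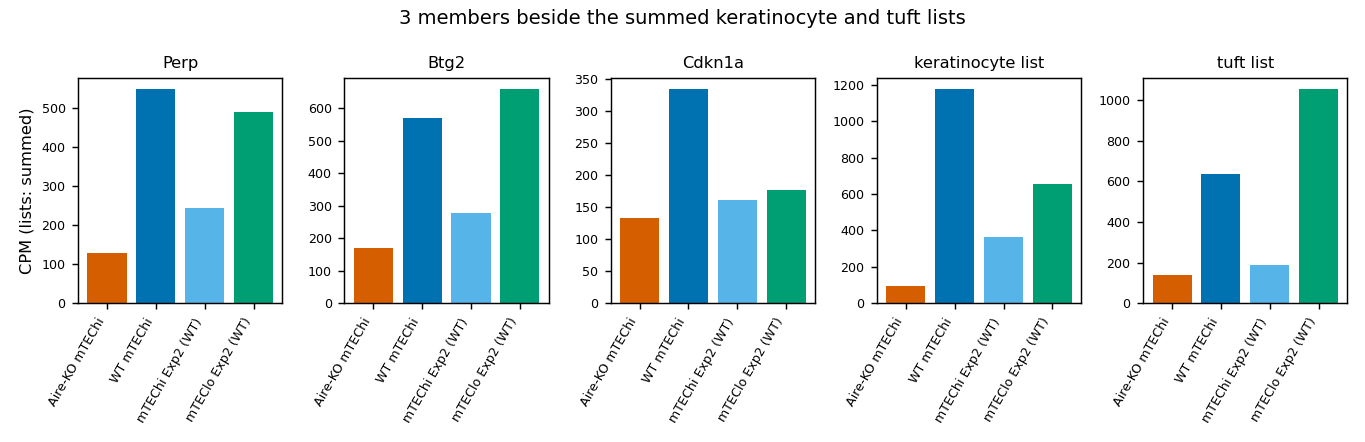
Bars give the CPM of Perp, Btg2 and Cdkn1a and the summed CPM of 7 keratinocyte and 5 tuft markers, 1 bar per library, in Aire-KO mTEChi, WT mTEChi, mTEChi Exp2 and mTEClo Exp2. The library labelled Aire-KO has the lowest bar in all 5 panels, and mTEChi Exp2 the next lowest.

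Further p53 targets did not share 1 direction in the Aire pair. Of 22 listed, 3 were at least 2-fold higher in the library labelled Aire-KO (Polk, Fas and Tnfrsf10b, named after their values were seen), against 7.22% of genes. There were 2 at least 2-fold lower, against 29.0% of genes. The lower ones were Plk2, a kinase, with 4067 normalised counts against 17039 in WT, and Pmaip1, which encodes the BH3-only protein NOXA, with 10501 against 32185. In CPM, Plk2 had 30.8, against 151 in WT mTEChi and 63.9 in mTEChi Exp2, and Pmaip1 79.4, against 285 and 214. Phlda3, an inhibitor of Akt, had 7392 against 12153 in WT, and Ei24, a protein of the endoplasmic reticulum, 8666 against 10763. The median ratio of the list was 1.15. Trp53, the gene of p53 itself, had 12634 normalised counts in the library labelled Aire-KO, compared with 6536 in WT, a ratio of 1.93 (within 2-fold), and Trp63, which encodes the p53 relative of basal epithelium, had 14971 against 9457. In CPM, Trp53 stood at 95.5, against 57.9 in WT mTEChi and 79.0 in mTEChi Exp2, and Trp63 at 113, against 83.8 and 67.4. Mdm4, an inhibitor of p53, had 5720 against 4774, and Usp7, which removes ubiquitin from Mdm2 and p53, 7306 against 6053. Desmosome genes held 3 of 9 members at least 2-fold lower, a share near the 29.0% of all genes. These were Dsp (48686 normalised counts against 109654 in WT) and Jup (14294 against 35861), which link the desmosome to keratin filaments, and Dsg3, named after its value was seen. The desmosomal cadherin gene Dsg2 ran the other way, with 56588 against 28358 (ratio 1.995), and Pkp1 had 20779 against 34356. In CPM, Dsg2 had 428, against 251 in WT mTEChi and 454 in mTEChi Exp2. Dsp had 368, against 972 and 639, Jup 108, against 318 and 153, and Dsg3 3.58, against 16.4 and 6.98. Of the BCL2 family 0 of 9 were at least 2-fold lower and 1, Bcl2, named after its value was seen, was at least 2-fold higher.

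The second pair addresses how mature mTEChi differ from mTEClo. Gdf15, Sesn2 and Mdm2 were at least 2-fold higher in mTEChi and Btg2 and Perp at least 2-fold lower. These 3 and 2 of 10 stand against 19.2% of 21844 genes at least 2-fold higher and 21.2% at least 2-fold lower. At 3-fold Gdf15 and Sesn2 were higher, against 12.4% of genes, and no member was lower, against 13.9%. The median ratio of the 10 members was 1.68, against 1.00 over all genes.

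Gdf15 had the highest ratio, with 8084 normalised counts in mTEChi, against 1078 in mTEClo, 7.497-fold higher (95% interval 6.93 to 8.12). Sesn2 had 10476 in mTEChi, against 2799 in mTEClo, 3.74-fold higher (3.56 to 3.94). Mdm2 had 17509, against 6195, 2.83-fold higher (2.73 to 2.93). The higher group thus joined the p53 inhibitor to both members of the stress response. Bbc3 followed just short of 2-fold, with 3161 normalised counts in mTEChi and 1592 in mTEClo (ratio 1.98, 1.85 to 2.13), and Bax had 6787 and 3727 in the same order (1.82, 1.74 to 1.91). Ccng1 had 24235 in mTEChi, against 15728 in mTEClo (1.54, 1.51 to 1.58). Trp53inp1 was nearly even, at 24265 in mTEChi and 21147 in mTEClo (1.15, 1.12 to 1.17). Cdkn1a had 18866 in mTEChi, against 21772 in mTEClo (0.867, 0.849 to 0.884). Perp was lower, with 28519 in mTEChi, against 60516 in mTEClo, 2.12-fold lower (2.09 to 2.15). Btg2 was lower too, with 32487, against 81373, 2.50-fold lower (2.47 to 2.54).

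The WT library of the Aire pair gives a second mTEChi level here. Gdf15 stood at 68.8 CPM in mTEChi Exp2 and 34.4 in WT mTEChi, against 8.74 in mTEClo. Sesn2 stood at 89.2 and 87.4 CPM in these mTEChi libraries, against 22.7 in mTEClo, and Mdm2 at 149 and 206, against 50.2. For each of the 3 both mTEChi libraries were at least 2.97-fold above mTEClo. With Bax and Bbc3 this made 5 members whose mTEClo level lay below both mTEChi libraries by more than the gap between those libraries, against 32.8% of 19712 genes. The lower calls did not carry over. With WT mTEChi as the mTEChi library, Perp stood at 548 CPM, against 490 in mTEClo, a ratio of 1.12 on the other side of 1, and Btg2 at 570, against 659, a ratio of 0.864. With that library 5 members were at least 2-fold higher and 0 lower, all in CPM. Both mTEChi libraries were above mTEClo for 7 members and below it for Btg2, against 47.3% and 33.5% of genes.

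In the edgeR fit with 3 untreated WT mTEChi libraries no member passed against mTEClo after adjustment (0 of 10), where 1.90% of 24703 entries were higher and 1.44% lower in mTEChi. At an unadjusted p of 0.05 there were 3, all higher in mTEChi, where 2701 of 24703 entries were higher. The same 3 members passed in DESeq2, where 1771 of 23373 entries were higher and 927 lower. Gdf15 had a log2 difference of 2.86 (edgeR adjusted p = 0.089), Mdm2 of 2.13 (0.124) and Sesn2 of 1.82 (0.105). Without the 0 h library the differences were 2.47 for Gdf15 (adjusted p = 0.0271), 1.74 for Mdm2 (0.0392) and 1.88 for Sesn2 (0.0226), so that these 3 passed, where 6.92% of 24649 entries were higher and 4.15% lower. That fit takes its spread from the 2 mTEChi libraries left, and the lone mTEClo library is assumed to vary like them. Over all fits the adjusted p ranged from 0.000547 to 0.135 for Gdf15, from 0.0120 to 0.167 for Mdm2 and from 0.0139 to 0.341 for Sesn2.

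Beside these genes, 7 of 8 cell cycle markers were at least 2-fold higher in mTEChi, with a sum of 493 CPM, against 142 in mTEClo. In WT mTEChi of the Aire pair that sum was 217 CPM. Both mTEChi libraries were above mTEClo for 6 of 8 cell cycle markers, against 47.3% of genes. Fibroblast markers ran the other way, with 6 of 7 lower in mTEChi and a sum of 92.6 CPM, against 939.5 in mTEClo, as did all 6 endothelial markers (35.4 CPM against 225). Dendritic cell and macrophage markers summed to 515 CPM in mTEChi, against 63.1 in mTEClo, and thymocyte markers to 43.9 against 40.3. The part of such cells in the levels of the 10 genes was not tested.

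Of the 22 further p53 targets, 6 were at least 2-fold higher in mTEChi and 3 at least 2-fold lower, against 19.2% and 21.2% of 21844 genes. Pmaip1 was among the higher, with 25107 normalised counts in mTEChi, against 11953 in mTEClo, and Plk2 (7509 against 25277) and Phlda3 (8602 against 20684) among the lower, with Dram1, named after its value was seen, as the third. In WT mTEChi of the Aire pair Plk2 had 151 CPM, against 205 in mTEClo, and Phlda3 108, against 168. Both were short of 2-fold there. Dram1 stayed lower in that library (43.3 CPM against 141) and Pmaip1 higher (285 against 96.9). Trp53 differed by 1.42-fold (9276 in mTEChi, 6518 in mTEClo), while Trp63 had 7911 in mTEChi, against 24535 in mTEClo, a ratio of 0.322. The immediate early genes, to which Btg2 is often counted, held 4 of 9 at least 2-fold lower and none higher. Fos had 115642 normalised counts in mTEChi, against 321831 in mTEClo, and Jun 172112 against 402333, and Fosb and Dusp1, named after their values were seen, were the other two. Genes of the integrated stress response, which can also induce Sesn2 and Gdf15, were mixed, with 2 of 7 higher (Trib3 and Chac1, named after their values were seen) and 1 lower. The lower one was Atf3, at 47945 normalised counts in mTEChi, against 187853 in mTEClo, while Atf4 had 29932 against 26766. In the BCL2 family, the survival gene Bcl2l1 had 20482 in mTEChi, against 6964 in mTEClo, and was the 1 of 9 at least 2-fold higher. Mcl1 had 34528 against 28299.

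The actinomycin D series addresses how long the transcripts last once synthesis is blocked. CPM gives the share of a transcript among those left, so a value that stays level is one that is lost at the pace of the whole library. The 4 treated libraries were made with SMARTer and Nextera kits and the 0 h library with a TruSeq kit, and at the first step kit and treatment cannot be told apart. The later libraries were therefore read against 1.5 h. At 12 h, Sesn2, Trp53inp1, Btg2 and Mdm2 were at least 2-fold below their level at 1.5 h, and Bax and Ccng1 were above it. These 4 of 10 stand against 36.5% of 18460 genes at least 2-fold lower, and none of the 10 was at least 2-fold higher, against 11.9% of genes. At 3-fold Sesn2 alone was lower, against 28.5% of genes. Among the 12049 genes with a mean of 5 CPM or more, 21.9% were at least 2-fold lower. The median log2 ratio of the 10 members was −0.79, against −0.42 over all genes and −0.21 over those 12049.

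Sesn2 had the lowest share left. It stood at 89.1, 80.2, 67.7, 45.1 and 25.8 CPM at 0, 1.5, 3, 6 and 12 h, so that 32.1% of the 1.5 h level was left at 12 h (ratio 0.321, 95% interval 0.233 to 0.432). Btg2 stood at 176, 74.9, 63.0, 33.5 and 28.6 CPM at 0, 1.5, 3, 6 and 12 h (38.2% left, ratio 0.382, 0.282 to 0.506). Both were lower at each later time than at the one before, as was Cdkn1a, which was almost level between 3 and 6 h. Btg2 was also the one member at least 2-fold lower at 1.5 h than at 0 h, a step of the kind taken by 5.74% of genes, and at 6 h than at 1.5 h, where 37.4% of genes were.

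Mdm2 and Trp53inp1 had a maximum among the treated libraries at 3 h. Mdm2 stood at 391, 275, 352, 238 and 127 CPM at 0, 1.5, 3, 6 and 12 h (45.9% of 1.5 h, ratio 0.459, 0.3999 to 0.526). Trp53inp1 stood at 94.9, 94.0, 111, 65.1 and 33.2 CPM at 0, 1.5, 3, 6 and 12 h (35.3%, ratio 0.353, 0.267 to 0.458). Gdf15 also had its highest treated value at 3 h, at 113, 73.3, 87.1, 72.4 and 44.1 CPM at 0, 1.5, 3, 6 and 12 h (60.2%). Whether these 3 h values stand above the spread between such libraries was not tested.

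Cdkn1a and Perp had almost the same level at 3 and 6 h. Cdkn1a stood at 96.7, 84.3, 62.6, 62.2 and 49.8 CPM at 0, 1.5, 3, 6 and 12 h (59.1%), and Perp at 151, 114, 76.1, 77.4 and 64.7 CPM at the same times (56.7%). The cell death gene Bax did the opposite of most members. It stood at 55.8, 78.2, 63.8, 118 and 119 CPM at 0, 1.5, 3, 6 and 12 h, so that its ratio of 12 h to 1.5 h was 1.52 (1.31 to 1.75). Ccng1 stood at 75.7, 78.8, 57.0, 75.9 and 95.03 CPM over the 5 times (ratio 1.21, 1.02 to 1.41). Bbc3 was too shallow to place, with 11 reads at 12 h and a ratio of 0.743 whose interval (0.364 to 1.36) spans 1.

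**Figure D4:**
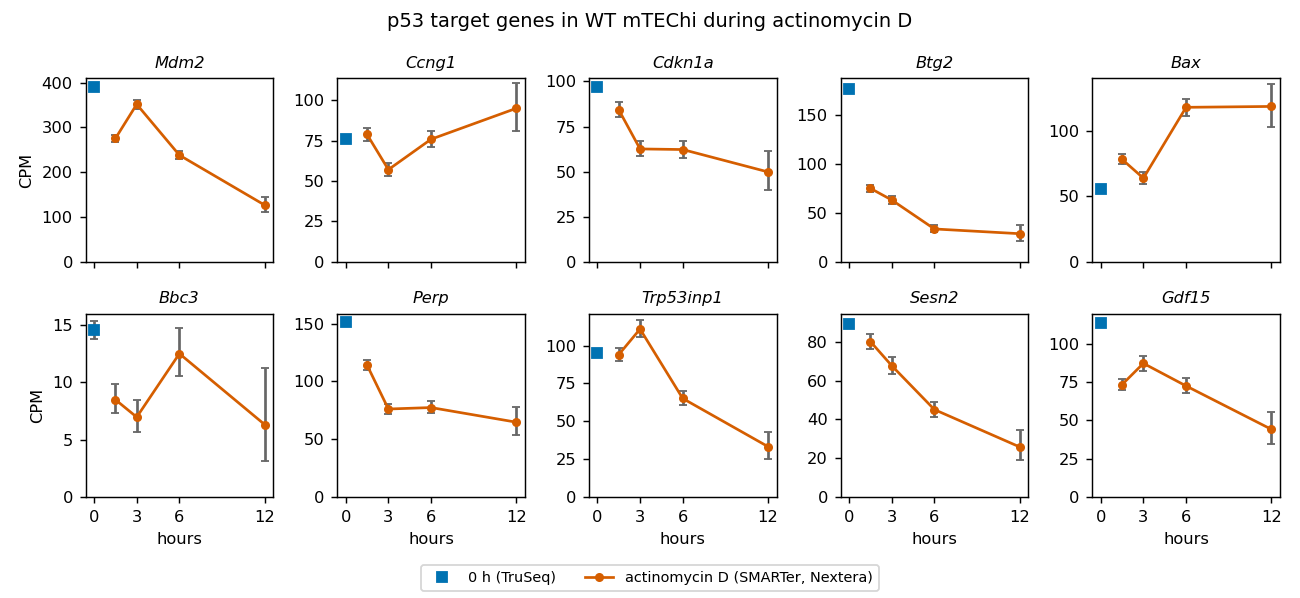
Each panel shows 1 gene, with hours in actinomycin D on the x axis and CPM on the y axis, 1 library per point, exact 95% Poisson intervals as bars, and the 0 h library, made with another kit, as a square. Sesn2 and Btg2 step down at each later time, Mdm2, Trp53inp1 and Gdf15 have their highest treated value at 3 h, and Bax is highest at 6 and 12 h. Cdkn1a also falls at each time but is almost level between 3 and 6 h.

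A slope over hours in the 4 treated libraries passed for no member and for no entry at all (edgeR quasi-likelihood test, 0.00% of 20652 entries at an adjusted p of 0.05). At an unadjusted p of 0.05 there were 1896 of the 20652 entries, 1235 of them downward, and these held 4 members, all downward. In DESeq2 400 of the 4986 entries with an adjusted p passed, with 1 member. Trp53inp1 had a slope of −0.15 log2 units per hour (edgeR adjusted p = 0.419), Sesn2 of −0.15 (0.422), Btg2 of −0.13 (0.494) and Mdm2 of −0.12 (0.457). Bax had a slope of 0.08 (0.654). In DESeq2 Mdm2 reached an adjusted p of 0.0483, and without the 6 h library Trp53inp1 (0.0243) and Sesn2 (0.0335) passed in edgeR, where 1874 of 20452 entries did. The 12 h library held the fewest reads, and with 6 h as the last time 1 member, Btg2, was at least 2-fold lower.

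Among the 22 further p53 targets, 8 were at least 2-fold lower at 12 h than at 1.5 h, a share near the 36.5% of 18460 genes. None was at least 2-fold higher, against 11.9% of genes. The median ratio was 0.579 for the 10 members, 0.598 for these targets and 0.748 over all genes. Pmaip1 had 34.5 CPM at 1.5 h and 3.43 at 12 h, and Plk2 67.5 and 35.5 at the same times. Trp53 itself had 63.6 CPM at 1.5 h and 88.2 at 12 h. Immediate early genes had 4 of 9 at least 2-fold lower, among them Fos, at 929 CPM at 1.5 h and 372 at 12 h, with Egr1 and, named after their values were seen, Fosb and Zfp36. Markers of other cells moved along the series as well. The keratinocyte list summed to 660 CPM at 1.5 h and 197 at 12 h, the dendritic cell and macrophage list to 333 and 637, and the thymocyte list to 39.2 and 134. Their part in the levels of the 10 genes was not tested.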

How the data were processed

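Total RNA of 9 sorted mTEC samples was sequenced, 1 library per group. For the pairs, the authors aligned reads to mm9 with Bowtie 1.0.0, counted those within RefSeq exons with bedtools and deposited counts divided by DESeq size factors, a normalised signal. The deposited actinomycin D values are raw counts. The authors' fold and p-value columns were not used. Whole reads were recovered from the normalised signal (100% of values whole within 0.1 reads), and on them edgeR called 2049 of 24703 entries in the Aire contrast and 826 in the mTEClo contrast.

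Ratios in the pairs are of normalised counts, with exact 95% intervals from the reads, for genes with at least 10 normalised counts over both libraries (10 reads over the series for actinomycin D, log2 after adding 0.5 reads scaled to library size). CPM are reads per 1e6 reads on RefSeq entries. A count of 0 allows up to 3 reads, or 0.0154 to 1.72 CPM per library. Calls are at 2-fold, or at a Benjamini-Hochberg adjusted p of 0.05 in edgeR 4.0.16 (TMM, filterByExpr) and DESeq2 1.42.0 under R 4.3.3. Fits were also run on simulated counts to check the code, with a fixed spread, which says nothing of their power at the spread between these libraries. Counting did not use strand, and Cdkn1a and Trp53inp1 have 2 entries each. CPM scaling moves the median log2 ratio of the Aire pair by −0.23.

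The members, the 17 other lists and the tests were chosen with earlier results of these data known. The text names all members, up to 4 genes of each pathway list with the highest mean normalised count over the pairs, and Trp53, Trp63, Mdm4 and Aire. Genes outside this rule are marked as named after their values were seen. Cell type lists are given as counts and sums. Coordinates are of mm9 (gencode vM1), and symbols and promoter windows are of RefSeq GRCm38.p6. Labels do not say whether samples are separate cultures or animals beyond the pools named, so p-values measure the spread between these libraries, which may be technical. Alternatives were scaling, filter, entry, fold, tool, and leaving out each library.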

Additional observations from a re-analysis of the deposited data

How the results depend on the processing

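No paired analysis was possible because each group held 1 library, so that the groups compared shared fewer than 2 replicate numbers. In the Aire pair the count of 3 members at least 2-fold lower was 3 under CPM, TMM, no filter and the median entry. It was 1 at 3-fold and 0 with mTEChi Exp2 as the reference, an alternative chosen after seeing the data. For mTEChi over mTEClo the 2 lower calls became 0 at 3-fold, and with the other WT library, also chosen after seeing the data, 0 were lower and 5 higher, with Perp at 1.12. In the actinomycin D course the 4 lower calls became 7 against 0 h, with 1 higher, 1 with 6 h as the last time and 1 at 3-fold. For the slope, DESeq2 called 1 member lower, and leaving out each treated library gave 0 to 2. For mTEClo, DESeq2 called 3 higher, and leaving out each WT mTEChi library gave 0 to 3, with 3 without the 0 h library, 1 without WT mTEChi and 0 without mTEChi Exp2. Calls over all entries moved too. The slope called 0 in edgeR, 400 of 4986 in DESeq2, 1874 without the 6 h library and 605 without the 12 h library. The Aire contrast called 3538 in DESeq2 and the mTEClo contrast 2698, and 2727 without the 0 h library and 310 without mTEChi Exp2.

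Directions that reversed were all of values short of the threshold in the fit reported, Perp above aside. Slopes left out in turn ran from −0.00380 to 0.0914 for Ccng1 and from −0.0405 to 0.133 for Bbc3. In the Aire contrast, leaving out each WT library gave log2 differences from −0.69 to 0.35 for Cdkn1a, −0.408 to 0.0510 for Mdm2 and −0.44 to 0.33 for Trp53inp1, which was 0.0341 with DESeq2 size factors in edgeR and 0.0340 in DESeq2. In the mTEClo contrast it gave −0.63 to 0.42 for Cdkn1a, −0.34 to 0.38 for Ccng1 and −0.35 to 0.42 for Trp53inp1. With DESeq2 size factors in edgeR and in DESeq2 these were −0.0123 and −0.0119 for Cdkn1a, −0.0223 and −0.0220 for Ccng1, and −0.00332 and −0.00293 for Trp53inp1. The cause was not tested in any of these cases. Depth limits the 12 h library most, where members had 11 to 221 reads.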
